A study of Mus musculus with 22 samples.

Results

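Mertk, Axl, Cd36, Stab1, Msr1, Cd163, Siglec1 and Adgre1 encode surface receptors of mononuclear phagocytes that bind dying cells, modified lipoproteins or other cargo, together with the macrophage marker F4/80. These 8 genes were taken by symbol from the 34047 genes of the RNA count table, and their levels were followed over all 16 RNA libraries. To these were added the 102 accessible windows, of 177956 in the ATAC table, for which one of the 8 was the closest gene within 50000 bases. Dead cells expose phosphatidylserine, which TAM receptors such as Mertk and Axl bind through the bridging proteins Gas6 and protein S, and which other receptors bind directly. Scavenger receptors take up oxidized lipoproteins, apoptotic bodies or hemoglobin complexes and deliver them to lysosomes. In spleen and lymph nodes macrophages are the best known users of these receptors, and among dendritic cells (DCs) Cd36 is a long-known marker of the cross-presenting type 1 subset.

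The study compared type 1 conventional DCs (cDC1s) with 2 subsets of type 2 conventional DCs (cDC2s), which carry or lack the transcription factor T-bet. All cells came from Tbx21RFP-Cre mice, which per the methods are homozygous for a knock-in that reports T-bet as red fluorescent protein, so that controls and T-bet+ cells share the allele. Mice were 6 to 10 weeks old, of both sexes, and had no treatment. Cells were sorted as CD11c+ MHCII+ cells free of lymphocyte markers, Ly6C and CD64, then as CD11b- XCR1+ cDC1s or CD11b+ XCR1- cDC2s, with RFP+ cDC2s called T-bet+ and RFP- cDC2s called T-bet-. RNA was sequenced from spleen (3 cDC1, 3 T-bet+ cDC2 and 3 T-bet- cDC2 libraries) and from mesenteric lymph nodes (MLN; 3, 2 and 2), each library holding cells pooled from 2 mice, and ATAC-seq was done on spleen only, with 2 libraries per subset. Because a bulk library sums over cells, fewer cells with a transcript and less transcript per cell cannot be told apart.

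Libraries held 20993220 to 29006549 RNA counts, and 7270164 to 10081555 ATAC counts in windows. Levels are given as CPM, read counts relative to the TMM-scaled size of the library. Tbx21, the T-bet gene, was at 17.1 to 24.7 CPM in the T-bet+ cDC2 libraries of spleen and 0.284 to 2.35 CPM in the T-bet- ones, and at 3.02 and 7.12 CPM against 0.540 and 0.929 CPM in MLN. Xcr1, the cDC1 gate receptor, was at 796 to 1216 CPM in splenic cDC1s and 447 to 1232 CPM in MLN cDC1s. In cDC2 libraries Xcr1 stayed between 4.42 and 12.6 CPM, apart from T-bet+ cDC2 replicate 2 of MLN with 35.0 CPM.

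Before the RNA values, 4 stretches of chromatin are shown, 1 for each receptor with a window called lower in T-bet+ than T-bet- cDC2s, chosen as its window with the largest difference. Each is a window of 150 bases of GRCm38 (mm10), read from the plus strand of the RefSeq assembly, and had fewer reads in T-bet+ cDC2s. The Mertk window, chr2:128745919-128746068, lies in an intron 47037 bases after the gene start. The Siglec1 window, chr2:131090927-131091076, is intergenic, at -4236 bases from the start, and the Msr1 window, chr8:39650088-39650237, is intergenic, at -7489 bases. The Cd36 window, chr5:17876741-17876890, is intronic, 11986 bases after the start, and is the second of Cd36 by size, because the window with the largest difference overlaps an untranslated exon of RefSeq and is not printed. Capitals mark matches to the C/EBP letters TTGCNNAA or the MAF letters TGCTGAC on either strand.
Mertk window: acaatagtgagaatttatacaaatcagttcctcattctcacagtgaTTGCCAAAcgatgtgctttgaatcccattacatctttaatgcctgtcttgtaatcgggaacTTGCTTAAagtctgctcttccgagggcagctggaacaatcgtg
Siglec1 window: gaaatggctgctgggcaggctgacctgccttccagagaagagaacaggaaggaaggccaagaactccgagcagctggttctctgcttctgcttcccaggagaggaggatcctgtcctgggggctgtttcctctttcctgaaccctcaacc
Msr1 window: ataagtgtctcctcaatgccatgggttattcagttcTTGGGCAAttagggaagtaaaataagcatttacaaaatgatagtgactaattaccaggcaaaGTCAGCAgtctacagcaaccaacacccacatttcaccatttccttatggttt
Cd36 window: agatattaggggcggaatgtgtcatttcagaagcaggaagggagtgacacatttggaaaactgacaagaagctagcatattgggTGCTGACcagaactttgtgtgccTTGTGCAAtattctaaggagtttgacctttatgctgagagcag

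In spleen, 4 of the 8 receptors differed between the cDC2 subsets, and all 4, namely Axl, Cd36, Mertk and Msr1, were lower in T-bet+ cDC2s. The test was edgeR's quasi-likelihood test with Benjamini-Hochberg adjustment over all 14377 genes tested, called at an adjusted p under 0.05. Of all genes tested, 5.38% were called, and 3.44% were called lower in T-bet+ cDC2s. All 8 members passed the filter on low counts in every fit, several of them only through the group in which they were high. The median log2 fold change of the 8 was -3.51, beside -0.01 for all genes. Members that passed only through a high group differ between groups by selection, so the median of the 8 is a description and no test. Axl, Mertk and Msr1 are on the list of T-bet- core genes that the study chose from these same libraries, so their direction is not independent of that choice.

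Axl (chr7:25757273-25788705, minus strand of mm10 in the GENCODE M21 annotation), a TAM receptor tyrosine kinase that binds Gas6, was read at 167, 110 and 148 CPM in the 3 T-bet- cDC2 libraries of spleen, at 9.58, 5.67 and 15.5 CPM in T-bet+ cDC2s and at 8.32, 11.5 and 14.1 CPM in cDC1s. The T-bet- libraries were all above both other subsets, which overlapped each other. The fold between cDC2 subsets was 13.9 (log2 fold change -3.80 ± 0.40 SE, adjusted p = 0.000844), and T-bet- cDC2s exceeded cDC1s 12.9-fold (3.69 ± 0.40, adjusted p = 0.000228). In MLN, Axl stood at 368 and 225 CPM in T-bet- cDC2s, at 5.78 and 13.1 CPM in T-bet+ cDC2s and at 3.85, 17.4 and 24.9 CPM in cDC1s. The order of groups was thus MLN and then spleen T-bet- cDC2s, without overlap, followed by 4 groups whose neighbours overlapped.

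Mertk (chr2:128698956-128802894, plus strand), the TAM kinase best known for apoptotic cell uptake by macrophages, was a low transcript with the same leading groups. Splenic T-bet- cDC2s had 126, 49 and 172 counts, while the T-bet+ libraries had 10, 0 and 4 and the cDC1 libraries 6, 41 and 15. All T-bet- libraries were above the other splenic libraries, the nearest being T-bet- replicate 2 and cDC1 replicate 2 at 2.47 and 1.68 CPM. The difference between cDC2 subsets was -4.72 ± 1.06 (adjusted p = 0.0327), and that between T-bet- cDC2s and cDC1s was 2.50 ± 0.93 and did not pass (adjusted p = 0.106). In MLN, T-bet- cDC2s held 24.6 and 16.1 CPM, against 0.559 and 2.50 CPM in T-bet+ cDC2s and 0.451, 2.05 and 0.216 CPM in cDC1s. MLN T-bet- cDC2s were above splenic T-bet- cDC2s (5.97, 2.47 and 6.42 CPM) without overlap, although the tissue difference was not called (-2.00 ± 0.96, adjusted p = 0.214). An antisense gene and a small nucleolar RNA overlap Mertk, and whether strand was used in counting is not given in the sources used here. The call between splenic cDC2 subsets was lost without any 1 of 5 libraries (T-bet- replicates 1 and 3 and each T-bet+ replicate), with adjusted p up to 0.123.

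Msr1 (chr8:39581685-39642673, minus strand), the class A scavenger receptor for modified lipoproteins and dying cells, gave the largest fold of the 8 between splenic cDC2 subsets. In spleen it was at 80.9, 40.1 and 46.2 CPM in T-bet- cDC2s, at 1.80, 1.19 and 0.744 CPM in T-bet+ cDC2s and at 0, 0.737 and 1.42 CPM in cDC1s. T-bet- libraries were separate from both other subsets, which overlapped. The difference was 44.8-fold between cDC2 subsets (-5.48 ± 0.92, adjusted p = 0.00911) and 81.7-fold against cDC1s (6.35 ± 0.97, adjusted p = 0.00177). Msr1 lost its call between cDC2 subsets without T-bet+ replicate 2 or 3 (adjusted p up to 0.0610). In MLN, T-bet- cDC2s were at 76.7 and 43.9 CPM, within the splenic range, while T-bet+ cDC2s were at 0.633 and 4.53 CPM and cDC1s at 0.216 to 0.958 CPM.

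Cd36 (chr5:17781690-17888801, minus strand), a class B scavenger receptor for oxidized lipids and fatty acids, was the only member highest in cDC1s. Splenic cDC1s held 462, 675 and 838 CPM, T-bet- cDC2s 111, 33.0 and 64.5 CPM and T-bet+ cDC2s 7.08, 6.11 and 2.27 CPM. The 3 subsets did not overlap, and each pair was called: T-bet+ cDC2s were 124-fold below cDC1s (-6.96 ± 0.63, adjusted p = 6.89e-05) and 13.5-fold below T-bet- cDC2s (-3.76 ± 0.54, adjusted p = 0.00441), and T-bet- cDC2s were 9.18-fold below cDC1s (-3.20 ± 0.53, adjusted p = 0.00274). Part of the cDC1 markers moved with Cd36 between the cDC2 subsets: 4 of 6 were called lower in T-bet+ cDC2s (3.44% of all genes). The 6 genes, all detected in T-bet- cDC2s, summed to 196 to 507 CPM there and to 61.9 to 88.5 CPM in T-bet+ cDC2s. Irf8 made most of these sums, with means of 281 CPM in T-bet- and 62.9 CPM in T-bet+ cDC2s. Xcr1 overlapped between the cDC2 subsets, at 6.96 to 12.6 CPM in T-bet- and 4.42 to 6.97 CPM in T-bet+ libraries. As a percent of the splenic cDC1 mean, T-bet- cDC2s held 10.6% for Cd36 (5.01% to 16.9% per library), and for the 6 markers from 0.396% (Itgae) and 1.03% (Xcr1) to 3.43% (Clec9a, a dead-cell receptor) and 7.92% (Irf8). The part of cDC1 RNA in the Cd36 level of T-bet- cDC2s was not tested.

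In MLN, Cd36 was at 469, 232 and 326 CPM in cDC1s and 43.5 and 38.4 CPM in T-bet- cDC2s, and its 2 T-bet+ cDC2 libraries differed, with 8.68 and 52.3 CPM. The higher library was replicate 2, in which Xcr1 stood at 4.66% and Clec9a at 7.16% of the MLN cDC1 mean, beside 0.685% and 0.207% in replicate 1. Cd36 itself was at 15.3% in replicate 2 and 2.54% in replicate 1, and the part of cDC1 RNA in this was not tested. Between MLN cDC2 subsets the log2 difference was -0.48 ± 0.71 (adjusted p = 0.89). It was -2.23 without replicate 2 and turned to 0.35 without replicate 1. Over the 6 groups, cDC1s of both tissues overlapped each other and were above all cDC2 libraries, the next 3 groups overlapped, and splenic T-bet+ cDC2s were below all others.

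**Figure D1:**
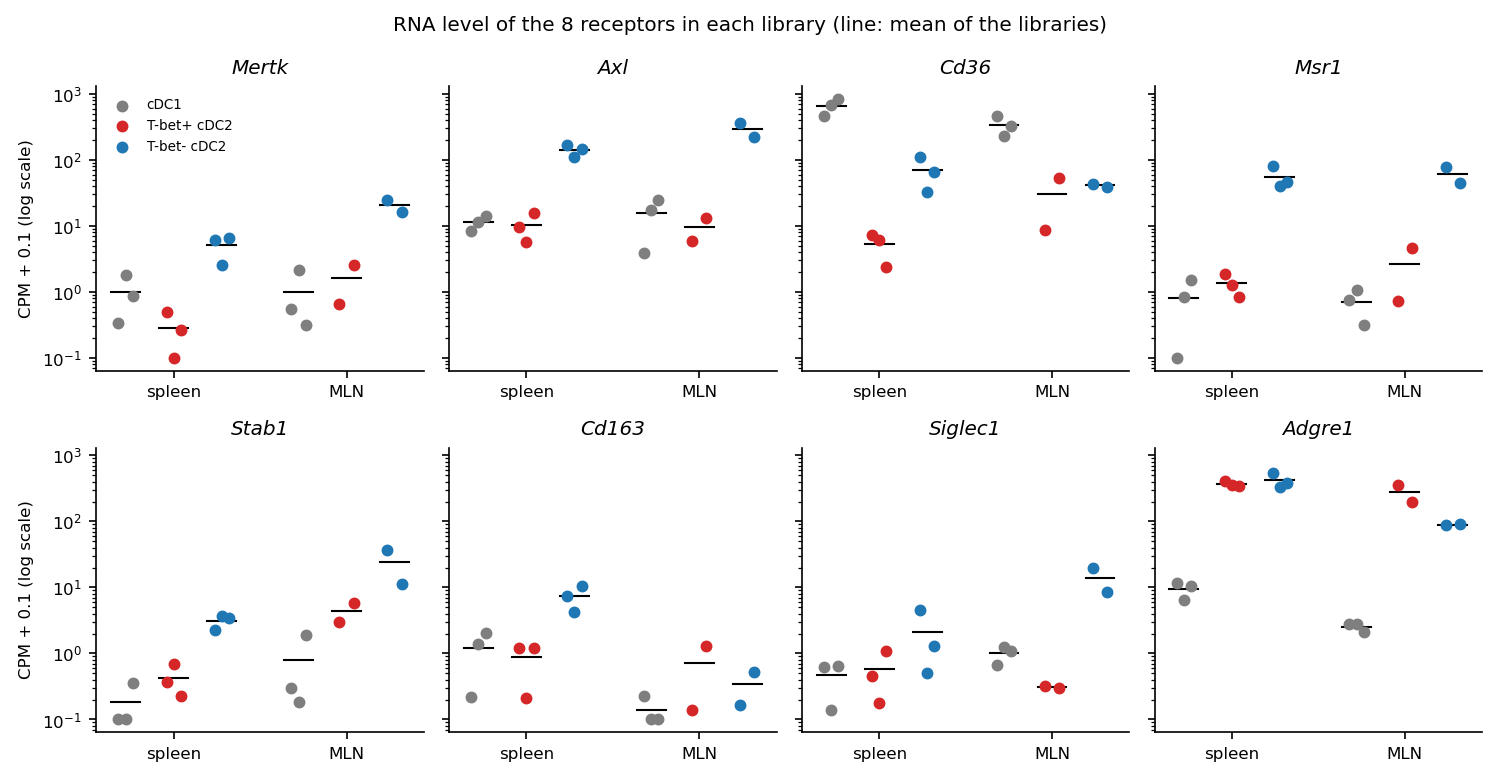
RNA level of the 8 receptors in every library, as CPM plus 0.1 on a log axis, by tissue and subset, with the group mean as a line. T-bet- cDC2s (blue) are the highest group for Mertk, Axl, Msr1, Stab1 and Siglec1 in both tissues, cDC1s (grey) for Cd36, and both cDC2 subsets lie above cDC1s for Adgre1.

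Stab1 (chr14:31139013-31168641, minus strand), a clearance receptor of sinusoidal endothelium and of some macrophages, was near the detection limit in spleen: T-bet- cDC2s had 46, 71 and 89 counts, T-bet+ cDC2s 7, 16 and 3, and cDC1s 0, 0 and 5. T-bet- libraries were above all others. The cDC2 subsets were not called (-3.17 ± 0.99, adjusted p = 0.109), whereas T-bet- cDC2s against cDC1s were (5.25 ± 1.15, adjusted p = 0.0128), a log2 value that rests on 5 counts in the cDC1 group. In MLN, T-bet- cDC2s had 36.4 and 11.2 CPM, T-bet+ cDC2s 2.94 and 5.64 CPM and cDC1s 0.205, 0.0871 and 1.80 CPM, with no overlap between these groups. Stab1 overlaps Nt5dc2 on the opposite strand, so reads of the 2 genes may be mixed. Of the 5 stromal and endothelial markers none had a mean of 1 CPM in splenic T-bet- cDC2s, although Col3a1 passed it in 1 library, and they summed to at most 1.56 CPM, and in MLN T-bet- cDC2s they summed to 0.946 to 8.28 CPM.

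Cd163 (chr6:124304656-124330527, plus strand), the hemoglobin-haptoglobin receptor of red pulp macrophages, was detected above a few counts mainly in spleen. Splenic T-bet- cDC2s had 157, 82 and 283 counts, T-bet+ cDC2s 28, 3 and 27, and cDC1s 3, 31 and 39. The T-bet- libraries were above the others, but no splenic comparison passed the test (-3.26 ± 0.96, adjusted p = 0.0922 between cDC2 subsets). In MLN, T-bet- cDC2s had 2 and 11 counts, T-bet+ cDC2s 1 and 30, and cDC1s 3, 0 and 0, and no fold is given there.

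Siglec1 (chr2:131069220-131086765, minus strand), the sialic acid receptor of marginal zone metallophilic and subcapsular sinus macrophages, stood highest in MLN T-bet- cDC2s. MLN T-bet- cDC2s had 575 and 219 counts (19.4 and 8.48 CPM), T-bet+ cDC2s 6 and 5 counts, and cDC1s 14, 26 and 28 counts. In spleen the T-bet- libraries ranged from 8 to 93 counts and overlapped both T-bet+ cDC2s (2 to 24) and cDC1s (1 to 13). The MLN difference between cDC2 subsets was -6.07 ± 0.67 and had the smallest adjusted p of the members there (0.0735). The difference between T-bet- cDC2s and cDC1s of MLN was called (4.02 ± 0.50, adjusted p = 0.00475). The 5 other markers of marginal zone and sinus macrophages summed to 10.9 to 11.4 CPM in MLN T-bet- cDC2s and 12.1 to 14.4 CPM in T-bet+ cDC2s, with Cd209f at 0 in every MLN library.

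Adgre1 (chr17:57358691-57483527, plus strand), which encodes F4/80, set both cDC2 subsets apart from cDC1s. In spleen it was at 543, 329 and 383 CPM in T-bet- cDC2s, at 411, 354 and 345 CPM in T-bet+ cDC2s and at 11.4, 6.26 and 10.4 CPM in cDC1s. The cDC2 subsets overlapped (-0.18 ± 0.26, adjusted p = 0.753), and stood 45.8-fold and 40.3-fold above cDC1s (5.52 ± 0.32 and 5.33 ± 0.32, adjusted p = 5.84e-06 and 6.33e-06). In MLN, T-bet+ cDC2s had 359 and 196 CPM and T-bet- cDC2s 87.9 and 91.4 CPM, without overlap, and cDC1s had 2.02 to 2.71 CPM. MLN T-bet+ cDC2s were thus higher than T-bet- cDC2s by 1.60 ± 0.35 on the log2 scale (adjusted p = 0.252). Both splenic cDC2 subsets and MLN T-bet+ cDC2s overlapped as the highest groups, and MLN T-bet- cDC2s, splenic cDC1s and MLN cDC1s followed without overlap.

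By comparison, the counts of called receptors were as follows. In spleen, T-bet+ cDC2s differed from cDC1s in 2 of 8 members (18.2% of all genes), Adgre1 upward and Cd36 downward. Splenic T-bet- cDC2s differed from cDC1s in 5 of 8 (15.9% of all genes), with Adgre1, Axl, Msr1 and Stab1 higher and Cd36 lower. In MLN, T-bet- cDC2s differed from cDC1s in 6 of 8 (5.79% of all genes), all higher (4.34% of all genes): Adgre1, Axl, Mertk, Msr1, Siglec1 and Stab1, by 4.02 (Siglec1) to 6.70 (Msr1) on the log2 scale. MLN T-bet+ cDC2s differed from cDC1s in 2 of 8 (6.22% of all genes), again Adgre1 upward and Cd36 downward. Between the cDC2 subsets of MLN none of the 8 was called by edgeR, as was none of the 15298 genes tested (0%), while 6 of 8 members and 9.44% of all genes had an unadjusted p under 0.05 and DESeq2 called 5 of 8 members and 348 genes. Of these 6, Axl (-5.03 ± 0.87), Mertk (-3.79 ± 1.04), Msr1 (-4.61 ± 0.93), Stab1 (-2.54 ± 1.10) and Siglec1 were lower in T-bet+ than T-bet- cDC2s, and Adgre1 was higher. The comparisons share libraries, so the same T-bet- values enter several of them.

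**Figure D2:**
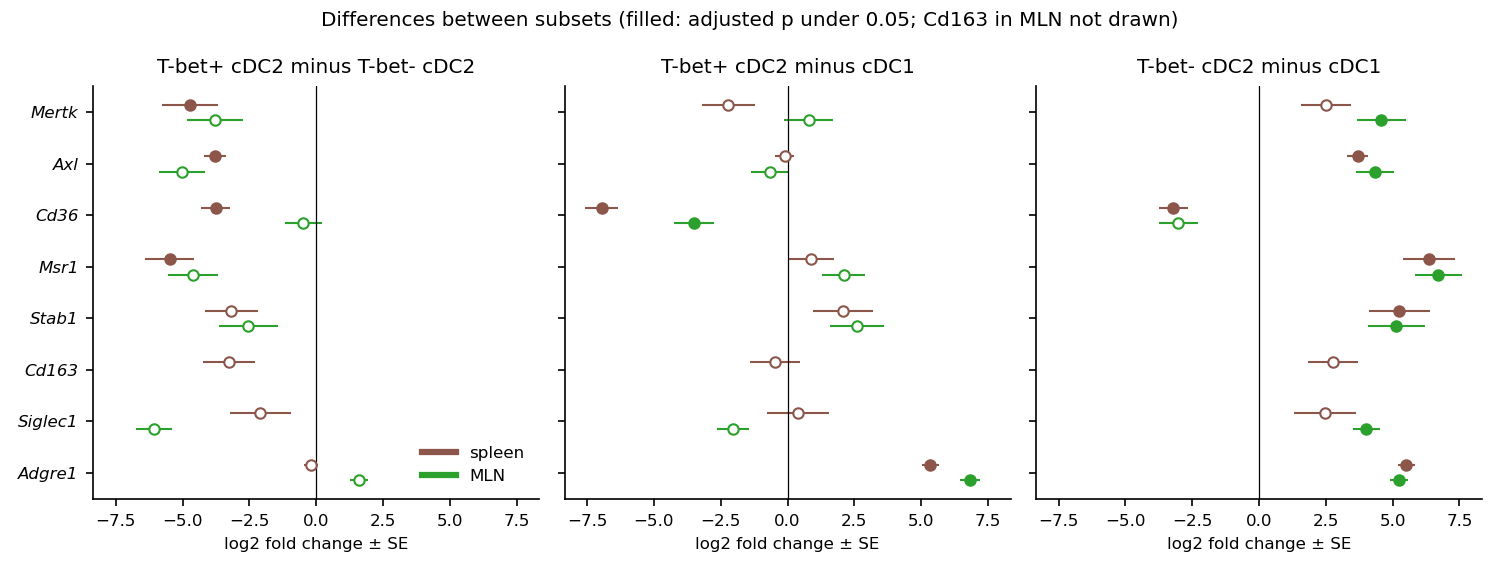
Log2 fold changes with their SE for the 8 receptors in 3 subset comparisons, in spleen (brown) and MLN (green), filled where the adjusted p is under 0.05. In spleen Msr1 is lowest in T-bet+ against T-bet- cDC2s at -5.48 and Cd36 lowest against cDC1s at -6.96, and Adgre1 is above 5 in all 4 comparisons with cDC1s.

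The MLN counts rested on few libraries. Without T-bet- replicate 1, Adgre1 alone remained called between T-bet- cDC2s and cDC1s of MLN, and without T-bet- replicate 2 the count was 3 (Adgre1, Msr1 and Siglec1). Mertk also lost this call without cDC1 replicate 1 or 3 (adjusted p up to 0.188), and Stab1 without cDC1 replicate 1 or 2 (adjusted p up to 0.243). The call of Cd36 between T-bet+ cDC2s and cDC1s of MLN was lost without 1 of 5 libraries, each of the cDC1 and T-bet- libraries, with adjusted p up to 0.0911 over the alternatives. In spleen, without T-bet+ replicate 2 or 3 the count between cDC2 subsets fell to 2, Axl and Cd36.

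Part of the macrophage and monocyte markers moved with the T-bet- group. Of the 5 cDC markers tested, 0 were called between splenic cDC2 subsets (5.38% of all genes), with a median of 0.11. In MLN, where no gene was called, the cDC markers had a median of 0.1. Between splenic cDC2 subsets 4 of 7 red pulp macrophage markers tested, 2 of 6 monocyte markers and 1 of 4 marginal zone and sinus macrophage markers were called, all lower in T-bet+ cDC2s (3.44% of all genes), with medians of -2.06, -1.39 and -0.24. None of these macrophage and monocyte markers was called by edgeR in MLN, with 5 of 6, 4 of 6 and 0 of 4 at an unadjusted p under 0.05, beside 9.44% of all genes. DESeq2 called 4, 3 and 0 there, lower in T-bet+ cDC2s, beside 238 of 15127 genes called lower. The 7 red pulp macrophage markers, all at or above 1 CPM in splenic T-bet- cDC2s, summed to 373 to 539 CPM there, to 112 to 121 CPM in T-bet+ cDC2s and to 186 to 291 CPM in cDC1s. In MLN the sums were 382 to 495, 32.3 to 131 and 76.8 to 213 CPM, with 5, 5 and 4 of the 7 at or above 1 CPM. Spic, the factor that defines red pulp macrophages, was lower in splenic T-bet+ than T-bet- cDC2s (-2.39 ± 0.27, adjusted p = 0.00117), as was Fcgr1, which encodes the CD64 excluded by the gate (-3.46 ± 0.84, adjusted p = 0.045). Fcgr1 was low in level, at 5.30 to 7.76 CPM in splenic T-bet- cDC2s and 0.410 to 0.821 CPM in T-bet+ cDC2s.

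The 8 monocyte markers summed to 778 to 1175 CPM in splenic T-bet- cDC2s and to 600 to 671 CPM in T-bet+ cDC2s. Among them Ccr2, the receptor for monocyte egress from marrow, was lower in T-bet+ cDC2s (-6.57 ± 0.59, adjusted p = 0.00038), as was Cx3cr1, the fractalkine receptor (-5.15 ± 0.51, adjusted p = 0.000633). Plac8, the most abundant of the list, was at a mean of 625 CPM in T-bet+ and 542 CPM in T-bet- cDC2s of spleen (0.19 ± 0.36, adjusted p = 0.817). Ly6c2, which encodes the Ly6C excluded by the gate, was at 1.69 ± 0.28 CPM (SD, n = 3) in T-bet+ cDC2s of spleen and 2.62 ± 1.17 CPM in T-bet- cDC2s. The 5 marginal zone and sinus macrophage markers summed to 53.1 to 63.5 CPM in splenic T-bet- and 21.3 to 33.0 CPM in T-bet+ cDC2s. The part of other phagocytes in the receptor levels of T-bet- cDC2s was not tested.

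Between tissues, 1 of 8 receptors was called in each subset, from a fit of all 16 libraries over 16795 genes. Adgre1 was higher in spleen than MLN in cDC1s (1.92 ± 0.30, adjusted p = 0.00225, with 11.7% of all genes called) and in T-bet- cDC2s (2.26 ± 0.34, adjusted p = 0.00311, with 5.95% of all genes). Cd36 was lower in splenic than in MLN T-bet+ cDC2s (-2.52 ± 0.64, adjusted p = 0.0406, with 5.09% of all genes). The Cd36 call was lost without any 1 of 8 libraries, among them MLN T-bet+ replicate 2, the library with the raised Xcr1 (adjusted p up to 0.637 over the alternatives). Adgre1 in splenic and MLN T-bet+ cDC2s was 0.43 ± 0.31 apart (adjusted p = 0.386). Tissue cannot be told apart from any difference in sort or sequencing day, nor, in T-bet+ cDC2s, from a library class by transcript GC content. For each gene, GC was the highest share in any 100 bases of its longest transcript. The higher class had a Spearman correlation over 0.1 between a library's log2 CPM deviations and this share. The GC content of reads was not measured.

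Whether the gap between cDC2 subsets differed between tissues was tested as an interaction. None of the 8 was called by edgeR, where 1 gene of 16795 was (0.00595%), 4 members had an unadjusted p under 0.05 (5.04% of all genes), and DESeq2 called 1 member, Adgre1, and 43 of 14213 genes. The value of Adgre1 was -1.82 ± 0.44 (adjusted p = 0.533), that of Cd36 -3.32 ± 0.93 (adjusted p = 0.756) and that of Siglec1 3.92 ± 1.51 (adjusted p = 0.949). The fourth was Cd163, for which the few MLN counts given above allow no value.

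In spleen, chromatin accessibility was compared over 98 tested windows near the 8 genes. Between cDC2 subsets 15 of the 98 were called (adjusted p under 0.01 and absolute log2 fold change over 0.5), beside 6.28% of all 166547 windows tested. Of the 15, 14 were less accessible in T-bet+ cDC2s, beside 2.36% of all windows, and lay at Msr1 (6), Cd36 (5), Siglec1 (2) and Mertk (1). The other, at Adgre1, was more accessible. DESeq2 called 9 of the 98, each of them among the 15, and the count was 8 without T-bet- replicate 2. The median log2 fold change of the 98 windows was -0.60, and -0.01 over all windows. T-bet+ cDC2s differed from cDC1s at 28 windows (23% of all windows), 14 in each direction, and T-bet- cDC2s from cDC1s at 29 (17.9% of all windows), 20 of them more accessible. Neighbouring windows can share reads, so they are not independent.

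At Msr1, 2 kinds of window were seen. Windows at -7489, -9244 and 47720 bases were most accessible in T-bet- cDC2s, as was the RNA. The -7489 window had 83 and 129 counts in the T-bet- libraries, 23 and 13 in the T-bet+ libraries and 19 and 16 in the cDC1 libraries (-2.59 between cDC2 subsets, 2.42 against cDC1s). Windows at -13032, 40620 and 40920 bases from the gene start, by contrast, were most accessible in cDC1s, where Msr1 RNA was at or below 1.42 CPM. The window at 40920 had 96 and 110 counts in cDC1s, 36 and 53 in T-bet- cDC2s and 7 and 14 in T-bet+ cDC2s, so the 3 subsets did not overlap. All 3 windows were called by edgeR in all 3 comparisons, with T-bet+ cDC2s lowest. The 40620 window was near the threshold between cDC2 subsets (edgeR adjusted p = 0.0078). Of the Msr1 windows called by edgeR, DESeq2 called 4 of 6 between cDC2 subsets and 5 of 8 between T-bet- cDC2s and cDC1s. The window with the highest counts, in an exon at 22702 bases, had 306 to 482 counts in the 6 libraries and was not called in any comparison.

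At Cd36, whose locus held 31 windows, accessibility followed the RNA order in part of the sites. The intronic window at 3311 bases had 108 and 106 counts in cDC1s, 22 and 30 in T-bet- cDC2s and 7 and 11 in T-bet+ cDC2s. It was called by edgeR in all 3 comparisons, near the threshold between cDC2 subsets (adjusted p = 0.0082). The most covered one, at 34166 bases, had 687 and 505 counts in cDC1s, 408 and 547 in T-bet- cDC2s and 219 and 271 in T-bet+ cDC2s (-1.02 between cDC2 subsets). Other sites ran against the RNA: windows at 8621, 8709, 31356 and 48999 bases were called more accessible in both cDC2 subsets than in cDC1s. The window at 11986 bases was highest in T-bet- cDC2s, with 68 and 94 counts against 19 and 34 in T-bet+ cDC2s and 24 and 17 in cDC1s. In all, 5 Cd36 windows were called lower in T-bet+ than T-bet- cDC2s and none higher, and DESeq2 called 3 of the 5.

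**Figure D3:**
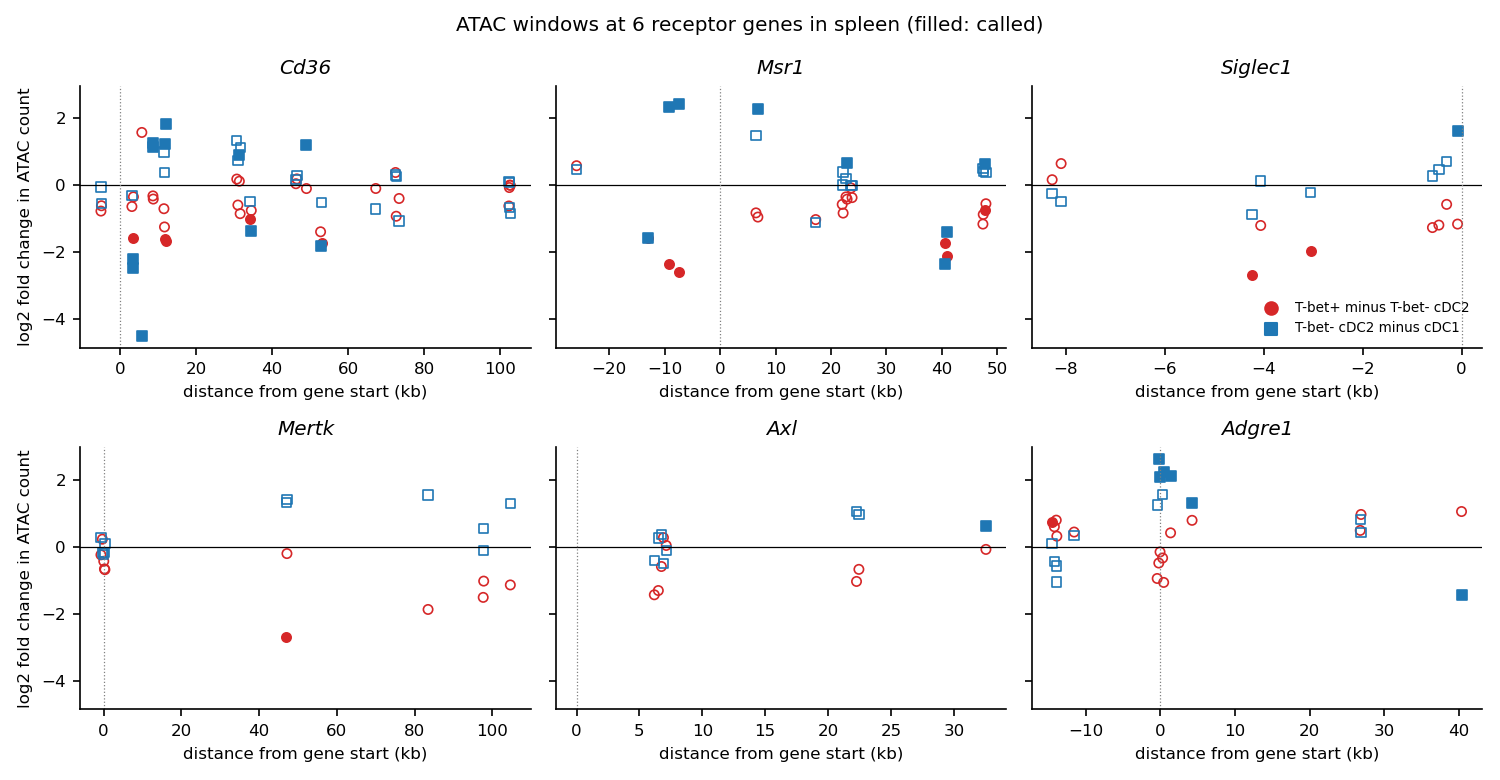
Log2 fold change in ATAC count of each tested window at 6 receptor genes against its distance from the gene start in kb, for T-bet+ minus T-bet- cDC2s (red circles) and T-bet- cDC2s minus cDC1s (blue squares), filled where called. The 14 called red windows below 0 lie at Cd36, Msr1, Siglec1 and Mertk, none at Axl.

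At Siglec1 the upstream windows at -4236 and -3052 bases were more open in splenic cDC1s and T-bet- cDC2s, in which the RNA was at or below 4.41 CPM. A further upstream window, at -8274 bases, was not called in any comparison. It had 47 and 41 counts in cDC1s, 41 and 42 in T-bet- cDC2s and 64 and 33 in T-bet+ cDC2s. The window at -4236 bases had 52 and 60 counts in cDC1s, 28 and 41 in T-bet- cDC2s and 9 and 2 in T-bet+ cDC2s. That at -3052 bases had 82 and 85, 64 and 99, and 19 and 24 counts in the same order. Both were called lower in T-bet+ cDC2s against each other subset, and neither differed by the test between T-bet- cDC2s and cDC1s (log2 differences -0.87 and -0.21). At the gene start itself, the window at -80 bases was highest in T-bet- cDC2s, with 56 and 64 counts against 27 and 29 in T-bet+ cDC2s and 21 and 14 in cDC1s. It was called against cDC1s (1.62) and not between cDC2 subsets (-1.16).

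At Mertk, the called intronic window had 16 and 36 counts in the T-bet- libraries, 5 and 3 in the T-bet+ libraries and 4 and 14 in the cDC1 libraries, a difference of -2.70 ± 0.58 between cDC2 subsets that rested on few counts and was lost in DESeq2's test and without T-bet- replicate 2 or T-bet+ replicate 2. The most covered window near the start, at -691 bases, did not differ by the test between cDC2 subsets (-0.24) or against cDC1s. At Axl, none of 8 windows was called between cDC2 subsets by edgeR or DESeq2, and no window lay within 2000 bases of the gene start. An unadjusted p under 0.05 in edgeR was reached by 2 of the 8, near the share of all windows (23.6%). The windows in the gene had 2 to 41 counts per library, and their largest differences were -1.43 and -1.31, at 6182 and 6502 bases. One window past the gene's end, 32545 bases from its start and in the upstream region of the neighbouring Hnrnpul1, was called in both cDC2 subsets against cDC1s (0.53 and 0.61). The call in T-bet+ cDC2s was at the threshold (edgeR adjusted p = 0.009985) and was lost in DESeq2's test.

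At Adgre1 the gene start was more accessible in both cDC2 subsets. The window at -199 bases had 7 and 11 counts in cDC1s, 55 and 69 in T-bet- cDC2s and 48 and 44 in T-bet+ cDC2s, and that at 1379 bases had 18 and 14, 68 and 88, and 112 and 104. Both were called against cDC1s in both cDC2 subsets (2.11 to 2.60), and neither between cDC2 subsets. The 1 window called between cDC2 subsets, at -14483 bases, was higher in T-bet+ cDC2s by 0.73 ± 0.20, with counts of 292 and 318 against 189 and 159. This call was lost in DESeq2's test and without T-bet- replicate 2 or T-bet+ replicate 2. At Stab1, windows at 2222 and 2483 bases were called higher in both cDC2 subsets than in cDC1s (2.07 to 2.31), without a called difference between cDC2 subsets by edgeR or DESeq2 (-0.21 and 0.24). Of its 3 windows, 1 had an unadjusted p under 0.05 between cDC2 subsets, beside 23.6% of all windows. Neither of the 2 Cd163 windows was called between cDC2 subsets by edgeR or DESeq2, with unadjusted p under 0.05 for both, beside the same 23.6% of all windows.

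**Figure D4:**
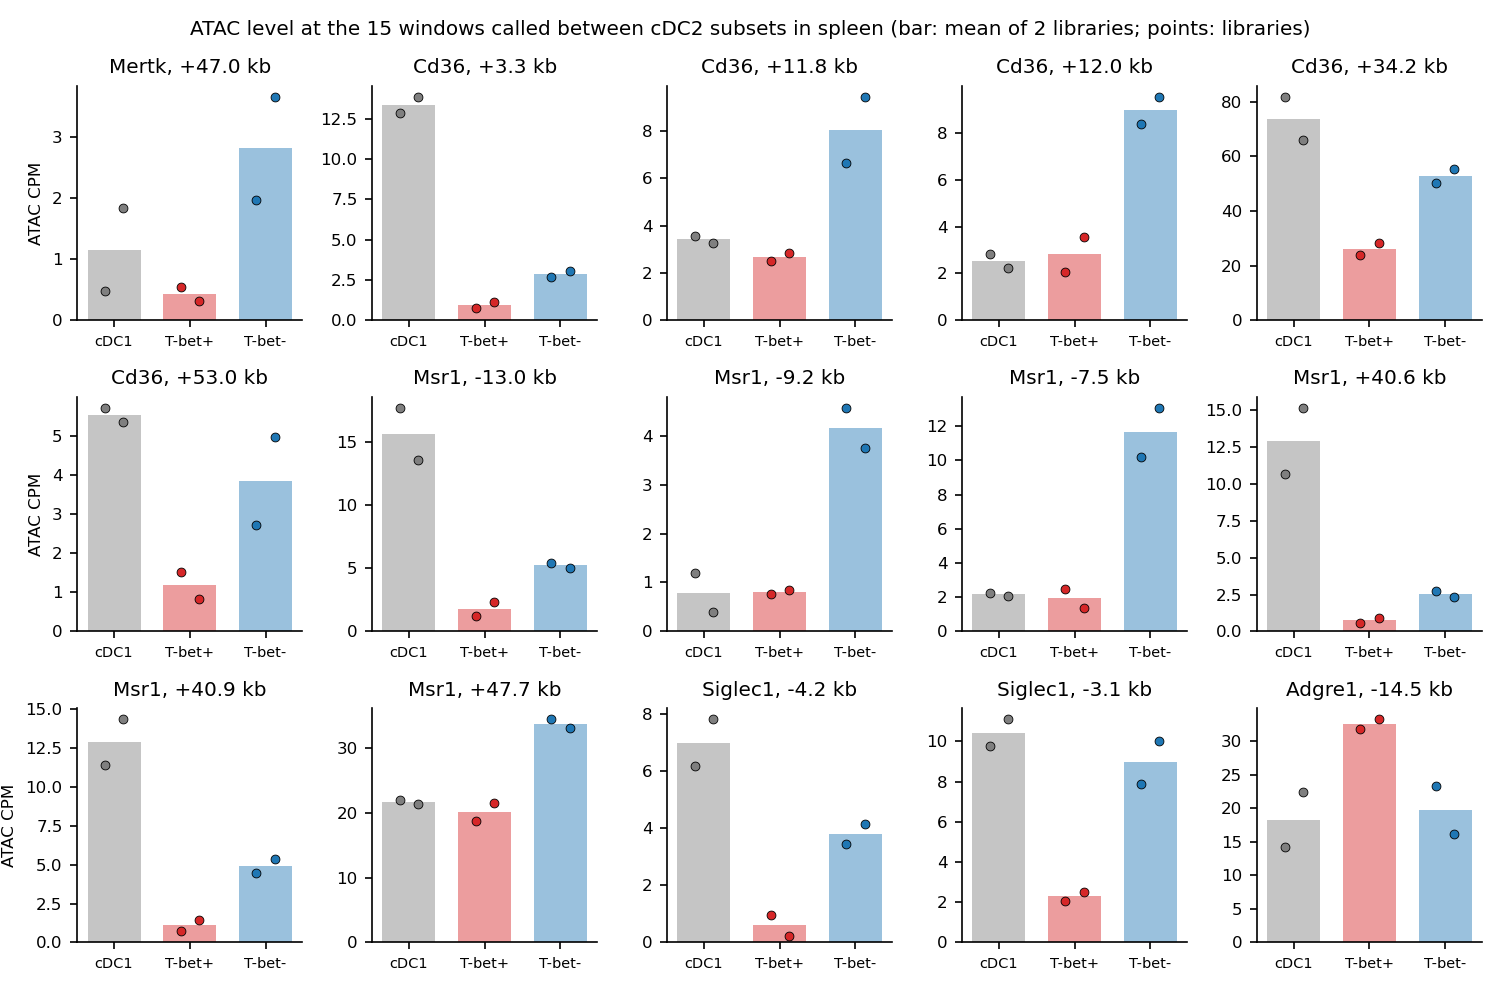
ATAC CPM at the 15 windows called between cDC2 subsets in spleen, by gene and distance from the gene start in kb, with bars for the mean of 2 libraries and points for the libraries. At Msr1 the T-bet- cDC2s are highest in the windows at -9244, -7489 and 47720 bases, whereas cDC1s are highest at -13032, 40620 and 40920 bases.

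Short letter patterns of factors active in phagocytes were counted on both strands in the windows, as a description. C/EBP letters (TTGCNNAA) were in 4 of the 14 windows called lower in T-bet+ cDC2s and in 5.86% of 170049 windows with a gene within 50000 bases. MAF letters (TGCTGAC) were in 3 of the 14 and 3.01% of all, Runx letters (TGTGGTT) in 2 of the 14 and 5.27% of all, and PU.1 letters (GAGGAAGT) in 1 of the 14 and 5.52% of all. An IRF pattern, GAAA repeated after 2 free bases, was in 1 of the 14 and 2.38% of all. T-box letters (AGGTGTNA), AP-1 letters (TGANTCA), ROR letters (TAGGTCA) and the NF-kB motif were in none of the 14, against 1.92%, 7.94%, 1.57% and 0.436% of all. Over all 102 windows at the 8 genes, which include the 14, the shares were 9.8% for C/EBP, 6.86% for MAF, 5.88% for Runx, 4.9% for PU.1 and 2.94% for IRF. They were 2.94% for T-box, 8.82% for AP-1 and 0% for ROR and NF-kB. MAF and AP-1 letters can overlap. The printed Siglec1 window held none of the 9 patterns.

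Per kilobase of exon the receptors spanned a wide range of levels. In splenic T-bet- cDC2s the mean RPKM was 129 for Adgre1, 28.1 for Axl, 19.4 for Cd36, 8.79 for Msr1, 1.35 for Cd163, 1.14 for Mertk, 0.294 for Stab1 and 0.280 for Siglec1. Adgre1 and Axl were at the 98.1 and 91.7 percentile of 19698 genes there, and Stab1 and Siglec1 at the 46.3 and 46. In splenic cDC1s, Cd36 reached 183 RPKM (98.8 percentile) and no other member passed 2.90. In splenic T-bet+ cDC2s, Adgre1 at 114 RPKM was followed by Axl at 2.04 and Cd36 at 1.44.

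Over the 16 RNA libraries, which share subset and tissue, the log2 CPM of Axl, Mertk and Msr1 ran together (Pearson r of 0.82 to 0.87), while Cd36 and Adgre1 ran in opposite directions (-0.8). The 3 genes most like each member, among about 8095 with a mean log2 CPM over 3, are given as a description. They were Sdc4, C1qa and C1qc for Axl (0.917 to 0.93), Lilrb4a, Lilr4b and Lyz1 for Mertk (0.88 to 0.9), and Sepp1, Cx3cr1 and C3 for Msr1 (0.937 to 0.951). Cd36 was most like Rab7b, Slc12a7 and Gcsam (0.973 to 0.985), and Adgre1 most like Lair1, Cd4 and Gapt (0.986 each). For Stab1 they were Gbp3, Cxcl2 and Pirb (0.895 to 0.92), and for the low transcripts Siglec1 and Cd163 no value passed 0.849.

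Other genes of dead-cell clearance were read from 4 lists in spleen. Of 28 further scavenger and dead-cell receptors, 23 were tested, and T-bet+ cDC2s were lower than T-bet- cDC2s in 8 and higher in 1 (median -1.21, against -0.01 for all genes). Of all genes, 5.38% were called and 3.44% were called lower, which is the background for all 4 lists. List genes can also pass the filter through 1 high group, so the list medians are a description. Clec9a, which binds actin of dead cells, was lower (-5.55 ± 0.72, adjusted p = 0.00251), as was Itgb5, a vitronectin receptor subunit (-3.51 ± 0.61, adjusted p = 0.0108). Cd300lf, a phospholipid receptor, was higher (1.35 ± 0.20, adjusted p = 0.00492). Tyro3, the third TAM kinase, stood at or below 0.41 CPM in every splenic library.

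Of 13 bridging ligands and opsonins, 11 were tested, and 8 were lower in T-bet+ cDC2s and none higher (median -2.38). DESeq2 called 8 of 12 lower and 1 higher, beside 847 lower and 565 higher of 17060 genes. C3, the central complement protein, fell from 214, 87.9 and 95.6 CPM in T-bet- cDC2s to 6.84, 3.39 and 6.49 CPM in T-bet+ cDC2s (-4.58 ± 0.46, adjusted p = 0.000699). C1qa, a chain of the C1q opsonin, was lower by the same test (-3.49 ± 0.30, adjusted p = 0.000275). Gas6, the ligand of Axl and Mertk, was at 0 in all 3 splenic T-bet- libraries and at or below 27 counts in all others. Pros1, which encodes protein S, was at 18.1, 9.28 and 19.2 CPM in splenic T-bet- cDC2s and at 2.15, 4.36 and 2.48 CPM in T-bet+ cDC2s, without overlap (-2.38 ± 0.47, adjusted p = 0.0195).

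Of 18 genes of cargo digestion and lipid handling, all tested, 7 were lower in T-bet+ cDC2s and none higher (median -1.33). These included Nr1h3, the sterol sensor LXR alpha (-3.51 ± 0.44, adjusted p = 0.00215), and Pparg, a fatty acid sensor (-3.01 ± 0.49, adjusted p = 0.00801). Of 15 genes of the engulfment machinery, 14 were tested, with 2 higher in T-bet+ cDC2s, none lower and a median of -0.01. The 2 were Ptk2, the focal adhesion kinase (1.60 ± 0.39, adjusted p = 0.045), and Rac2, a hematopoietic Rac GTPase (0.87 ± 0.21, adjusted p = 0.0414). DESeq2 called 2 of the 14 engulfment genes higher and 1 lower.

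In MLN no gene of the 4 lists was called between cDC2 subsets by edgeR. With an unadjusted p under 0.05 were 5 of 24 further receptors, 6 of 10 bridging ligands, 10 of 18 digestion genes and 2 of 14 engulfment genes, beside 9.44% of all genes. Their lists had medians of -0.64, -2.40, -1.25 and 0.02. DESeq2 called 4 further receptors, 4 bridging ligands and 7 digestion genes there, all lower in T-bet+ cDC2s, and no engulfment gene, beside 238 of 15127 genes called lower. Against cDC1s, where 5.79% of all genes were called and 4.34% were called higher, MLN T-bet- cDC2s were higher in 6 and lower in 1 of 24 further receptors, higher in 4 of 10 bridging ligands and in 4 of 18 digestion genes, and no engulfment gene was called by either tool (1 at an unadjusted p under 0.05 in edgeR).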

How the data were processed

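Bulk RNA-seq (16 libraries) and ATAC-seq (6 libraries) were analysed from the raw counts that the authors deposited. Per the methods and the submitters' processing notes, the authors aligned RNA reads to mm10 with HISAT2 2.1.0 and counted them per gene, and aligned ATAC reads with Bowtie2 2.2.5, pooled the replicates for peak calling by MACS2, and made count tables for 150-base windows at the summits and for whole peaks. Deposited counts were not normalized. Genes or windows were kept by filterByExpr, scaled by TMM and tested with edgeR 4.0.16 (quasi-likelihood, 2-sided, Benjamini-Hochberg over all features), with subset as the only term, per tissue or over all 16 libraries with 6 groups. SEs are the absolute log2 fold change divided by the square root of F. Fits were tested on simulated counts. RPKM used exon lengths of GENCODE M21. Signed distances follow gene strand. R 4.3.3, DESeq2 1.42.0 and Python 3.11.15 were used.

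Groups came from the sample labels. RFP+ cells are T-bet+ in the labels, and 1 sentence of the methods that gives the reverse was not followed. No pair of libraries held identical counts. Per the methods each RNA replicate was a pool of mice. The receptors, gene lists, motifs, tests and alternatives were chosen with earlier results of these data known. All 8 receptors were named. Of each other list up to 2 called genes per direction with the largest change between splenic cDC2 subsets were named, and Tyro3, Gas6, Pros1 and Ly6c2 besides, for their place in the pathway or the gate and after their values were seen. Named windows were the highest within 2000 bases of a gene start and the called one with the largest difference between cDC2 subsets, and further windows were picked after their values were seen. Alternatives were DESeq2, its size factors, other filters and thresholds, blocks, other sets of libraries, whole peaks, a library class from transcript GC content, and, added later, edgeR's newer quasi-dispersion and a crossed block. The score values of peaks and summits in the files that the authors deposited were not used.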

Additional observations from a re-analysis of the deposited data

How the results depend on the processing

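Of the counts of called receptors and windows, 84 stayed within 1.5 times their value under the alternatives that kept all libraries and 30 did not, and the causes were not tested. Calls between splenic cDC2 subsets numbered 4 in the main test, 6 with DESeq2 and 2 with at least 10 counts in every library, which removes receptors absent from a subset. Calls over all genes moved too, from 774 of 14377 in the main test to 1412 of 17060 with DESeq2. That filter gave 3 calls for splenic and 2 for MLN T-bet- cDC2s against cDC1s. Between MLN cDC2 subsets, where the main count was 0, DESeq2 gave 5, no filter 6, only the 2 compared subsets 2, the newer quasi-dispersion 1 and all 16 libraries together 1. Over all genes, 0 of 15298 were called there in the main test, 348 of 15127 with DESeq2 and 554 of 27006 with no filter. For MLN T-bet+ cDC2s against cDC1s (main count 2) DESeq2 and no filter gave 5 each, and only the 2 subsets or an adjusted p under 0.01 gave 1 each. Over all genes the main test called 952 of 15298 there, DESeq2 2032 of 16676 and no filter 2257 of 27006. The adjusted p under 0.01 gave 3 receptors for MLN T-bet- cDC2s against cDC1s and 0 for T-bet+ cDC2s between tissues. Between tissues, where each subset had 1 call, DESeq2 gave 3 for cDC1s, 3 for T-bet+ cDC2s and 4 for T-bet- cDC2s, no filter gave 4, 3 and 6 in that order, and the newer quasi-dispersion 2 and 5 in T-bet+ and T-bet- cDC2s. Over all genes the main test called 1961, 855 and 1000 of 16795 for cDC1s, T-bet+ and T-bet- cDC2s. DESeq2 called 3513 of 16177, 2801 of 15523 and 2243 of 16177 genes, and no filter 3397, 2875 and 2435 of 34047. For the interaction (main count 0) DESeq2 gave 1 and no filter 4. Over all genes these tests called 43 of 14213 and 186 of 34047, beside 1 of 16795 in the main test. Between cDC2 subsets in ATAC (15 windows), DESeq2 gave 9, as did keeping only windows in the gene or up to 2000 bases before it. Totals over all features are not given for the other alternatives, so their counts have no background beside them.

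Same-numbered libraries correlated in their deviations from -0.71 to 0.4 in spleen, from -0.15 to 0.64 in MLN (from -0.01 to 0.64 by the number in the library name) and from -0.04 to 0.02 in ATAC. Not every pair passed 0.1, and the main tests used no pairs. In a group of 2 libraries the deviations mirror each other, so these correlations cannot settle whether same-numbered libraries are pairs. With the replicate number as a block, 2 receptors were called between splenic cDC2 subsets and 0 in T-bet+ cDC2s between tissues. With the number in the library name as a block, the MLN counts were 4, 3 and 7, in place of 0, 2 and 6, and with crossed numbers they were 1, 2 and 6.

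Leaving out 1 library at a time, counts ranged from 2 to 5 between splenic cDC2 subsets, from 1 to 2 and 1 to 7 for T-bet+ and T-bet- cDC2s against cDC1s in MLN, from 0 to 2 in T-bet+ cDC2s and 1 to 2 in the other 2 subsets between tissues, and from 8 to 15 windows between cDC2 subsets. Small differences changed sign: Adgre1 between splenic cDC2 subsets (-0.34 to 0.045), Cd36 between MLN cDC2 subsets (-2.23 to 0.35), the Mertk -691 window (-0.64 to 0.078 between cDC2 subsets, -0.36 to 0.53 and -0.073 to 0.76 for T-bet+ and T-bet- cDC2s against cDC1s), the Adgre1 -33 window between cDC2 subsets (-0.40 to 0.059), the Msr1 -7489 window in T-bet+ cDC2s against cDC1s (-0.67 to 0.21) and the Adgre1 -14483 window in T-bet- cDC2s against cDC1s (-0.18 to 0.46). With library size alone the Mertk -691 window in T-bet+ cDC2s against cDC1s was -0.15, in place of 0.03. Levels on unscaled library sizes moved by at most 13.2%. A library class term could not be fitted in MLN, where all libraries fell in 1 class, the lower by transcript GC content, and in spleen it left the count at 4. In spleen the higher class held every T-bet+ library, cDC1 replicates 1 and 2 and T-bet- replicate 3.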
